A study of Mus musculus with 12 samples.

Results

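The 34 genes described here encode the folding machinery of the endoplasmic reticulum (ER) and the sensors that adjust it, the unfolded protein response (UPR). They were taken by name from the table of gene counts, and all 34 were among its 21834 protein-coding genes. Each passed the filter on low counts, a minimum of 0.5 CPM (counts scaled to one common library size) in 3 libraries, so that they are 34 of the 11626 genes tested. Derl3 passed it only through the 3 libraries of shAnxa2-OGDR, the group in which it is high, so that counts with it among the called members are also given without it. The members lie on 16 chromosomes, and 29 of them carry the deposited annotation for the KEGG pathway of protein processing in the ER.

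RNA came from BV2, an immortalized mouse microglial cell line, in 12 libraries. The cells carried a lentiviral pLKO.1 vector with a control shRNA (shCtrl) or with 1 shRNA against Anxa2 (shAnxa2), and both lines had been selected with puromycin and kept as stable lines, 1 line per shRNA. Each line was left untreated (CTRL) or went through oxygen-glucose deprivation and reoxygenation (OGD/R), a culture model of ischemia and reperfusion, which gives the 4 groups shCtrl-CTRL, shCtrl-OGDR, shAnxa2-CTRL and shAnxa2-OGDR with 3 libraries each. By the labels, deprivation lasted 4 h and reoxygenation 12 h, and the methods of the study state a longer reoxygenation. Groups were taken from the sample titles, because a second label calls all OGD/R libraries knockdown cells and conflicts with the titles. With 1 line per shRNA, a property of the line and an effect of the knockdown cannot be told apart, and p-values measure the spread between these libraries only.

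Proteins that enter the ER are folded by the HSP70 chaperone BiP and the HSP90 chaperone GRP94 with their co-chaperones, by the lectins calnexin and calreticulin, and by disulfide isomerases, while proteins that fail to fold are returned to the cytosol and degraded (ER-associated degradation, ERAD). When unfolded proteins accumulate, the membrane sensors IRE1, ATF6 and PERK start the UPR. IRE1 splices the mRNA of the transcription factor XBP1, cleaved ATF6 and XBP1 raise the genes of chaperones and of ERAD, and PERK slows translation and raises ATF4 and CHOP.

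The ER stress response element (ERSE), CCAAT and CCACG separated by 9 bases, is a motif through which ATF6 and XBP1 act with NF-Y. RefSeq windows of the 250 bases before a start site (GRCm38.p6) were at hand for 29 members and not for Hyou1, Manf, Derl1, Atf6 and Sec61a1. On either strand, 9 of the 29 (31%) held an ERSE, against 17 of the 9345 genes tested that have a window (0.182%) and 35 of 27025 windowed genes in all (0.13%). These 9 are Hspa5, Hsp90b1, Calr, Canx, Pdia6, Dnajc3, Creld2, Syvn1 and Derl3. The shorter ERSE-II, ATTGG and CCACG separated by 1 base, occurred only before Herpud1 among them, against 6 of the 9345 genes tested (0.0642%), and the UPR element TGACGTGG only before Txndc5, against 82 (0.877%). A set of 7 of these stretches are shown because they carry the motif in genes from 4 roles, with 20 bases on each side, the motif letters in capitals and the gene's own strand, from RefSeq.
Hspa5 (chr2:34772005-34772063, plus strand): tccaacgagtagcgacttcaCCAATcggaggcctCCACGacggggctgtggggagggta
Hsp90b1 (chr10:86705513-86705676, minus strand): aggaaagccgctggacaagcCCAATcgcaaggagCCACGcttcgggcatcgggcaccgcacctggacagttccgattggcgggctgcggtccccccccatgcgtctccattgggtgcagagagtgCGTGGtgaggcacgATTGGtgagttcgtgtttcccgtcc
Calr (chr8:84847055-84847113, minus strand): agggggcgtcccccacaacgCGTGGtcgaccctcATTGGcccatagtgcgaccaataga
Creld2 (chr15:88819500-88819558, plus strand): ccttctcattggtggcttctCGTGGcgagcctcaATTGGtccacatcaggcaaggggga
Dnajc3 (chr14:118937807-118937865, plus strand): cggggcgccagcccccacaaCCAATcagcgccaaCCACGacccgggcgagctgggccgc
Syvn1 (chr19:6046512-6046570, plus strand): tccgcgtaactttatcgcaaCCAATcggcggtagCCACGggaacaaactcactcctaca
Herpud1 (chr8:94386357-94386407, plus strand): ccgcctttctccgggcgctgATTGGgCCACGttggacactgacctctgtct
In the stretches of Calr and Creld2 the element runs on the opposite strand, where it reads CGTGG and then ATTGG. Hsp90b1 held 1 copy on each strand, which start 212 and 107 bases before its start site, and the copy of Hspa5 starts 65 bases before it. A match of letters is a description and no evidence of binding.

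Libraries held 19521877 to 27288843 counts, and the chi-square per gene between replicates was 3.96 to 12.9 over 12 pairs, above the 1 that counting error alone gives. All 12 microglial and macrophage markers were measured, with summed levels of 1596.3 to 2007.8 CPM. In the lists for other cell types, 3 of 5 neuronal genes (Snap25, Syt1 and Nefl) and 1 of 4 fibroblast genes (Dcn) had no counts in any library. The same held for 1 of 5 astrocyte genes (Aqp4) and 1 of 5 oligodendrocyte genes (Mog). All other genes of these lists had some counts. The summed neuronal list reached at most 0.755 CPM, the fibroblast list 0.376 and the endothelial list 2.19. The oligodendrocyte list, of which 2 of 5 genes were tested, summed to 4.08 to 6.71 CPM. The summed astrocyte list, of which 2 of 5 genes were tested, was at 19.5 to 22.2 CPM in shCtrl-CTRL, 39.4 to 41.1 in shCtrl-OGDR, 33.7 to 39.2 in shAnxa2-CTRL and 20.5 to 25 in shAnxa2-OGDR. Anxa2 itself was at 165 to 177 CPM in shCtrl-CTRL, 251 to 295 CPM in shCtrl-OGDR, 35 to 44.4 CPM in shAnxa2-CTRL and 18.2 to 20.6 CPM in shAnxa2-OGDR, which checks the line of a library and not its treatment.

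The treatment names need a remark before any direction is given. Of the 5239 genes called in both lines for OGD/R, 5165 (98.6%) moved in opposite directions, and 42 were higher and 32 lower in both. Genes known to rise in hypoxia, a list of 20 added after the values of the members were known, had 13 of 19 tested members higher and 2 lower in shCtrl-OGDR against shCtrl-CTRL, and 1 higher and 13 lower in shAnxa2-OGDR against shAnxa2-CTRL. The shares of all genes tested were 32.4% higher and 31% lower in the shCtrl line, and 28.2% and 26.8% in the shAnxa2 line. Levels of Ndrg1 over the shCtrl-CTRL, shCtrl-OGDR, shAnxa2-CTRL and shAnxa2-OGDR libraries averaged 10.8 ± 1.37, 72.2 ± 7.75, 48.8 ± 0.996 and 8.4 ± 1.34 CPM (SD, n = 3 each), and Bnip3 at 67.1 ± 8.76, 216 ± 33.5, 182 ± 10.1 and 39.7 ± 2.62 CPM in the same order. Both were named after their values were seen and are among the largest changes of the list. The 2 genes lower in shCtrl-OGDR were P4ha1 and Pfkfb3 (log2 fold change −0.25 and −0.20), and Pfkfb3 was higher in shAnxa2-OGDR (0.43). Slc2a1, Kdm3a, Hk2 and Higd1a were not called in shCtrl cells. Whether the libraries labelled shAnxa2-CTRL and shAnxa2-OGDR carry each other's treatment, or the shAnxa2 line responded with opposite sign, cannot be told apart in these data. Every direction below follows the names as labelled and rests on them, within either line and between the lines.

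In the libraries labelled shCtrl, most ER chaperone transcripts were reduced after OGD/R, and in those labelled shAnxa2 most were higher. For shCtrl-OGDR against shCtrl-CTRL, 23 of the 34 members were called lower (31% of all genes tested) and 6 higher (32.4% of all), at an adjusted p under 0.05 in the quasi-likelihood test of edgeR, Benjamini-Hochberg adjusted over the 11626 genes. In shAnxa2-OGDR against shAnxa2-CTRL, 20 members were higher (28.2% of all) and 6 lower (26.8% of all). The median log2 fold change of the members was −0.44 and 0.30, where the median over all genes was 0.00 and 0.00. The difference between the lines in their OGD/R change, the interaction, was positive for 24 members (34.9% of all genes) and negative for 8 (35.1% of all), with a median of 0.72, and 70% of all genes passed this test in one direction or the other. Lower in shCtrl and higher in shAnxa2 cells were 19 members (55.9%), as were 2610 of all genes (22.4%), and 3 members, Herpud1, Edem2 and Ern1, went the other way (8.82%, against 22% of all genes). Without Derl3, 19 of 33 members were higher in shAnxa2 cells (median 0.29) and 23 were positive for the interaction (median 0.71). P4hb alone among the members was called lower in both lines. Each value is a share of its library's RNA, so in these bulk libraries fewer expressing cells and less RNA per cell cannot be told apart.

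**Figure D1:**
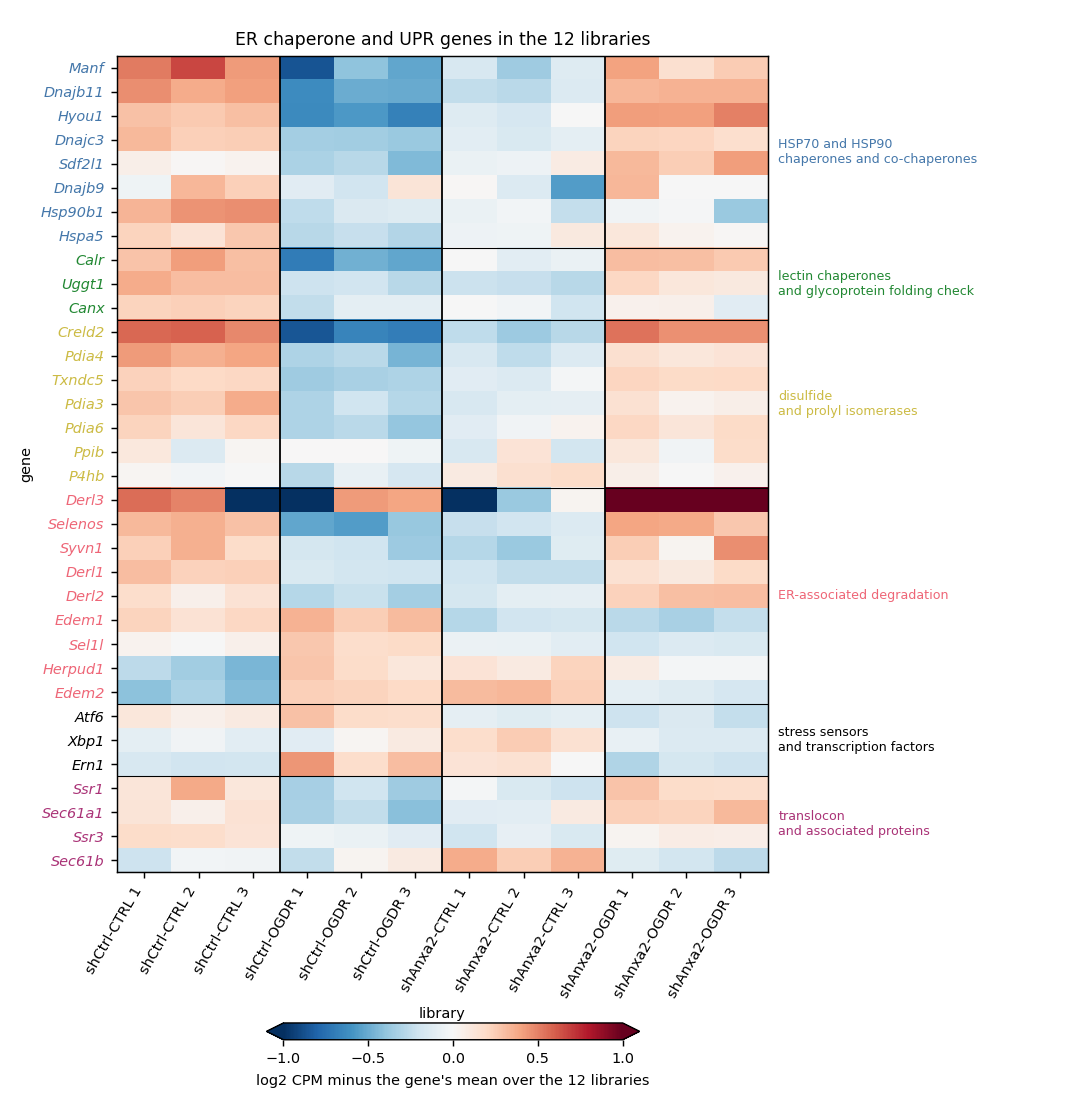
Each row is 1 of the 34 genes, ordered by role and by interaction, and each column 1 of the 12 libraries, with colour giving log2 CPM minus the gene's mean over the 12 libraries and colours beyond −1 and 1 saturated. By group average, rows of chaperones and lectin chaperones are red in shCtrl-CTRL and blue in shCtrl-OGDR, and red in shAnxa2-OGDR except for Hsp90b1 and Canx, while Edem2 and Ern1 show the reverse of this pattern; Derl3 saturates on 1 to 17 counts per library.

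The group means of 11 members ran in the order shCtrl-CTRL, shAnxa2-OGDR, shAnxa2-CTRL, shCtrl-OGDR from high to low, the most frequent order, and those of another 6 in the same order with the first and second exchanged. The mean was lowest in shCtrl-OGDR for 19 members and highest in shCtrl-CTRL for 17. In the plot of the changes in both lines, the 19 members called lower in shCtrl and higher in shAnxa2 cells lie in the upper left among the grey points of all genes, which run along the same falling diagonal.

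**Figure D2:**
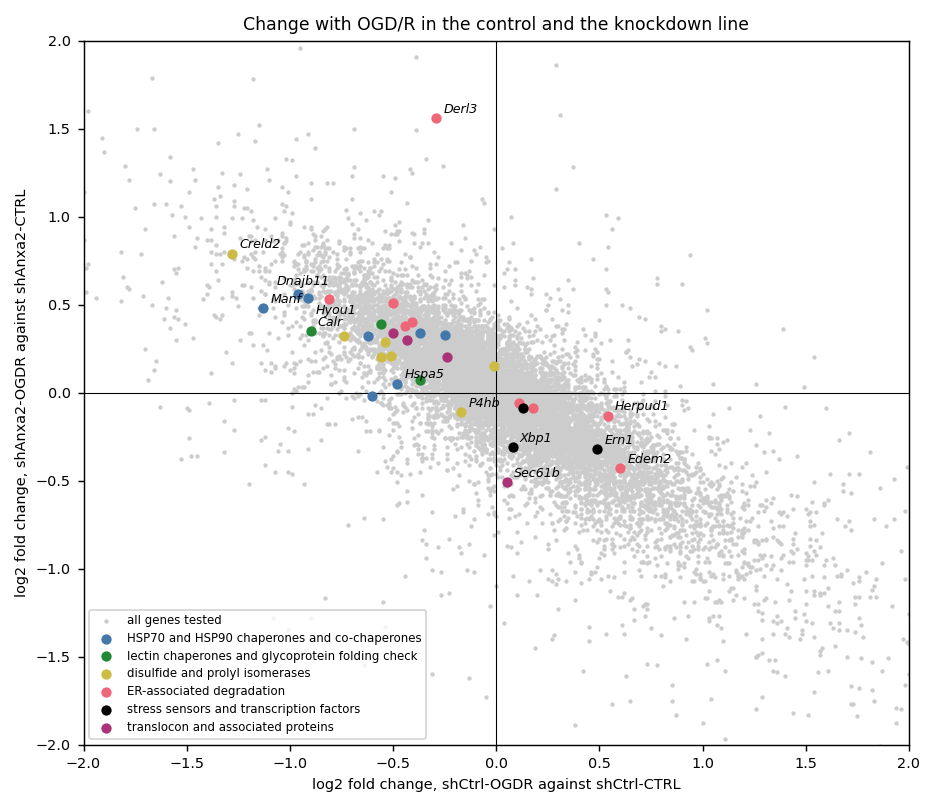
Each point is a gene, with its log2 fold change after OGD/R in the shCtrl line on the x axis and in the shAnxa2 line on the y axis, grey for all genes tested and coloured by role for the 34 members. Both axes stop at −2 and 2, which leaves out 136 genes and no member, and Creld2 lies at −1.28 and 0.79 while Edem2 lies at 0.60 and −0.43.

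Among the HSP70 and HSP90 chaperones and their co-chaperones, 7 of 8 were lower in shCtrl-OGDR than in shCtrl-CTRL (31% of all genes tested). None was higher (32.4% of all), and Dnajb9 was not called. In shAnxa2 cells 5 of the 8 were higher (28.2% of all) and none was lower (26.8% of all). The interaction was positive for 8 of 8 (34.9% of all). Hspa5, which encodes BiP, was at 1625.5, 1535.1 and 1679.1 CPM in shCtrl-CTRL, 1153.5, 1189.4 and 1138.4 in shCtrl-OGDR, 1349.3, 1356.8 and 1491.1 in shAnxa2-CTRL and 1512.9, 1428.2 and 1406.5 in shAnxa2-OGDR. The shCtrl-OGDR libraries lay below all others, and the other 3 groups spanned 1349.3 to 1679.1 CPM. With OGD/R its log2 fold change came to −0.48 (SE 0.0469, adjusted p = 4.18e-09) in the shCtrl line and 0.05 (SE 0.0469, adjusted p = 0.375) in the shAnxa2 line, and the interaction was 0.53 (SE 0.0663, adjusted p = 1.59e-07).
Hyou1, a large HSP70 relative that exchanges the nucleotide of BiP, was at 1111.7, 1087.9 and 1117.1 CPM in shCtrl-CTRL, 586, 611 and 569 in shCtrl-OGDR, 832, 809 and 907 in shAnxa2-CTRL and 1212.1, 1209.7 and 1286.7 in shAnxa2-OGDR. Levels in shCtrl-OGDR were the lowest and in shAnxa2-OGDR the highest, and no 2 groups overlapped. It fell by 0.91 on the log2 scale in shCtrl cells (SE 0.0475, adjusted p = 5.34e-14) and rose by 0.54 in shAnxa2 cells (SE 0.0472, adjusted p = 1.36e-09), an interaction of 1.45 (SE 0.067, adjusted p = 2.63e-15). Dnajb11, a J-domain partner of BiP, had levels of 192, 180 and 184 CPM in shCtrl-CTRL, 90, 98.5 and 97.7 in shCtrl-OGDR, 117, 115 and 126 in shAnxa2-CTRL and 175, 177 and 177 in shAnxa2-OGDR. Its shCtrl-CTRL libraries were highest, the 3 shAnxa2-OGDR libraries came next, close to each other, and no groups overlapped. The changes were −0.96 and 0.56, and the interaction 1.52 (SE 0.0697, adjusted p = 2.27e-15).
Manf, a small secreted protein that binds BiP, was measured at 44.4, 49.4 and 41.6 CPM in shCtrl-CTRL, 17, 23.5 and 21.6 in shCtrl-OGDR, 27.8, 24.3 and 28.3 in shAnxa2-CTRL and 41, 34.7 and 36.9 in shAnxa2-OGDR. Both CTRL groups were apart from their OGD/R groups, while shCtrl-CTRL lay just above shAnxa2-OGDR. With −1.13 in shCtrl cells it had the largest fall of this role, and its interaction was 1.61 (SE 0.135, adjusted p = 1.44e-10); 5.32% of the 50-base runs of its transcript are shared with an antisense transcript, and the strand setting of the counting is not given in the sources used here. Dnajc3, a J-domain protein that also inhibits PERK, and Sdf2l1, a stabilizer of the Dnajb11 complex, fell by 0.62 and 0.37 and rose by 0.32 and 0.34 in the respective lines. Hsp90b1, which encodes GRP94, was −0.60 (SE 0.072, adjusted p = 1.18e-07) in shCtrl cells and −0.02 (SE 0.0721, adjusted p = 0.819) in shAnxa2 cells. It shares 13.8% of its 50-base runs with other genes, mainly 1810014B01Rik. Dnajb9, the least counted of the role at 5.76 to 7.58 CPM on group average, had changes of −0.25 (adjusted p = 0.132) and 0.33 (adjusted p = 0.0715), and its interaction of 0.58 (adjusted p = 0.0172) was lost in 3 of 12 fits that left out 1 library. It shares 5.8% of its 50-base runs with the pseudogene Gm6568.

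Of the lectin chaperones and the glycoprotein folding check, OGD/R lowered 3 of 3 genes in the shCtrl line (31% of all genes tested). Higher in shAnxa2 cells were 2 (28.2% of all), and the interaction was positive for all 3 (34.9% of all). Calr, the lumenal lectin calreticulin and the member with the most counts, was at 2147.6, 2362.2 and 2169.0 CPM in shCtrl-CTRL, 1086.9, 1266.8 and 1233.7 in shCtrl-OGDR, 1756.2, 1639.6 and 1686.2 in shAnxa2-CTRL and 2189.4, 2168.0 and 2117.3 in shAnxa2-OGDR. In shCtrl-OGDR it stood well below every other library, and shCtrl-CTRL and shAnxa2-OGDR overlapped. The changes were −0.90 (SE 0.0507, adjusted p = 2.48e-13) and 0.35 (SE 0.0504, adjusted p = 2.86e-06), and the interaction was 1.25 (SE 0.0715, adjusted p = 1.43e-13). Uggt1, the glucosyltransferase that sends unfolded glycoproteins back to the lectins, was at 245, 234 and 235 CPM in shCtrl-CTRL, 164, 166 and 156 in shCtrl-OGDR, 163, 161 and 156 in shAnxa2-CTRL and 218, 205 and 203 in shAnxa2-OGDR. The 2 lowest groups, shCtrl-OGDR and shAnxa2-CTRL, overlapped, and the others lay apart. It moved by −0.56 and 0.39, an interaction of 0.94 (SE 0.0658, adjusted p = 5.35e-12).
Canx, the membrane lectin calnexin, had levels of 1017.2, 1024.6 and 1016.5 CPM in shCtrl-CTRL, 734, 814 and 811 in shCtrl-OGDR, 868, 855 and 758 in shAnxa2-CTRL and 897, 901 and 804 in shAnxa2-OGDR. Its shCtrl-CTRL libraries were the highest, and the other 3 groups overlapped. The change was −0.37 (SE 0.0549, adjusted p = 2.17e-06) in shCtrl cells and 0.07 (SE 0.0549, adjusted p = 0.299) in shAnxa2 cells. Per kilobase of GENCODE exon length, Calr had the highest level of all members in shCtrl-CTRL at 773 CPM per kb, followed by Hspa5 at 381 and P4hb at 346, and Derl3 was lowest at 0.175.

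Disulfide and prolyl isomerases spanned interactions from 0.06 for P4hb to 2.07 for Creld2. In shCtrl cells 6 of 7 were lower after OGD/R (31% of all genes tested), and in shAnxa2 cells 5 were higher (28.2% of all) and 1 lower (26.8% of all). Creld2, a secreted protein with isomerase activity that is known as an ER stress gene, was at 102, 103 and 95.3 CPM in shCtrl-CTRL, 37.9, 43.3 and 42.5 in shCtrl-OGDR, 57.3, 53.1 and 56.6 in shAnxa2-CTRL and 100, 93.8 and 93.9 in shAnxa2-OGDR. Both lines had groups without overlap, shCtrl-CTRL and shAnxa2-OGDR lay in the same range, and shCtrl-OGDR was lowest. Its changes, −1.28 (SE 0.058, adjusted p = 4.8e-15) and 0.79 (SE 0.0573, adjusted p = 6.92e-11), gave 2.07 (SE 0.0815, adjusted p = 1.47e-16) for the interaction, the largest of the 34. Pdia4, an isomerase with several thioredoxin domains, was at 234, 223 and 229 CPM in shCtrl-CTRL, 141, 145 and 126 in shCtrl-OGDR, 156, 146 and 159 in shAnxa2-CTRL and 195, 189 and 192 in shAnxa2-OGDR. Again shCtrl-CTRL was highest and shCtrl-OGDR lowest, without overlap between any groups. The interaction was 1.05 (SE 0.0728, adjusted p = 4.24e-12).
Txndc5, a further thioredoxin-domain isomerase, was at 194, 190 and 191 CPM in shCtrl-CTRL, 129, 132 and 133 in shCtrl-OGDR, 153, 150 and 163 in shAnxa2-CTRL and 192, 189 and 190 in shAnxa2-OGDR. Its shCtrl-CTRL and shAnxa2-OGDR libraries overlapped, and the shAnxa2-CTRL libraries lay between these and shCtrl-OGDR. The changes were −0.54 and 0.29, and the interaction was 0.84 (SE 0.0637, adjusted p = 2.59e-11). Txndc5 shares 7.12% of its 50-base runs with other genes, mainly Bmp6. Pdia3, which acts with the lectins, and Pdia6 fell by 0.56 and 0.51 in shCtrl cells and rose by 0.20 and 0.21 in shAnxa2 cells. P4hb, the classical protein disulfide isomerase, was −0.17 (SE 0.0476, adjusted p = 0.00344) and −0.11 (SE 0.0476, adjusted p = 0.0485), with an interaction of 0.06 (adjusted p = 0.466). Its call in shCtrl cells was lost without shCtrl-OGDR library 1 (−0.11, adjusted p = 0.0542) and that in shAnxa2 cells in 7 of the 12 fits that left out a library. Ppib, the prolyl isomerase cyclophilin B, was at 37.3 ± 3.22, 37.0 ± 0.717, 35.8 ± 4.47 and 39.7 ± 2.95 CPM in the 4 groups (SD, n = 3) and was called in none of the comparisons. Without shAnxa2-CTRL library 2 it was called in shAnxa2 cells (0.25, adjusted p = 0.0126) and for the interaction (0.26, adjusted p = 0.0361). Ppib shares 53.4% of its 50-base runs with other genes, mainly Snx22, so its counts are uncertain.

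**Figure D3:**
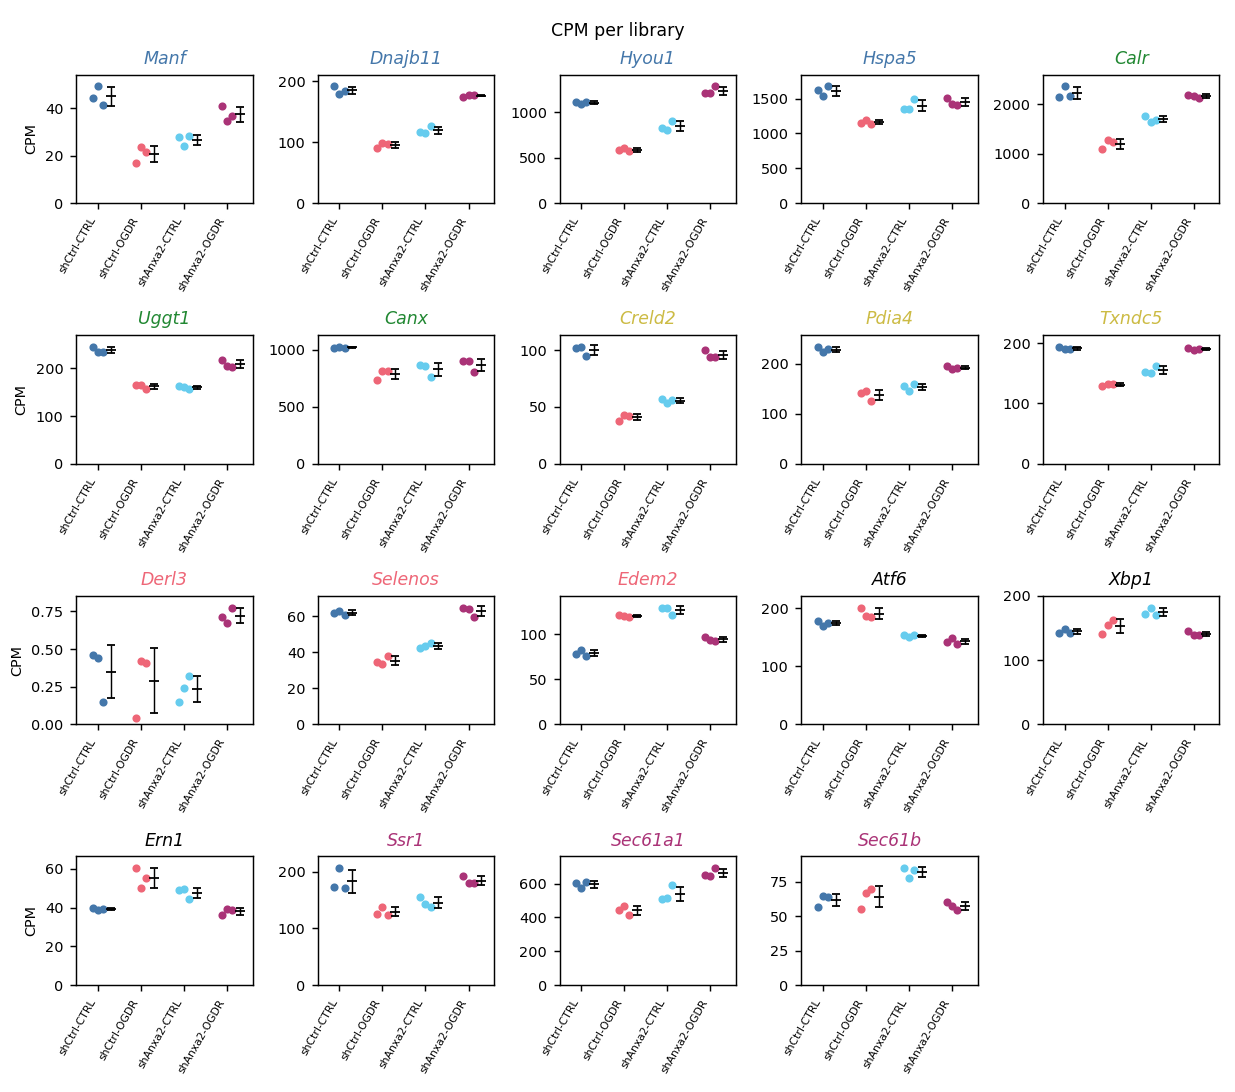
Points are CPM in each of the 3 libraries of the 4 groups for 19 members, with the mean and SD as a bar beside them and each y axis starting at 0. In the first 10 panels, chaperones and isomerases, shCtrl-OGDR has the lowest mean except for Uggt1 (162 CPM, against 160 in shAnxa2-CTRL), whereas Edem2 and Ern1 are low in shCtrl-CTRL and shAnxa2-OGDR.

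Genes of ERAD divided into those that moved with the chaperones and those that moved against them. In shCtrl cells OGD/R gave 4 of 9 lower and 4 higher (44.4% each, against 31% and 32.4% of all genes tested). In shAnxa2 cells 5 were higher (4 of 8 without Derl3) and 2 lower, against 28.2% and 26.8% of all. Selenos, which ties the extraction ATPase p97 to the derlins, was at 62, 63.1 and 60.4 CPM in shCtrl-CTRL, 34.4, 33.6 and 38 in shCtrl-OGDR, 42.2, 43.2 and 45 in shAnxa2-CTRL and 64.8, 64.1 and 59.7 in shAnxa2-OGDR. The shCtrl-CTRL and shAnxa2-OGDR libraries overlapped at the top and shCtrl-OGDR was lowest. Its interaction was 1.34 (SE 0.0841, adjusted p = 7.01e-13), from changes of −0.81 and 0.53. Edem2, which starts the trimming of mannose that marks glycoproteins for degradation, was at 77.8, 83 and 76.5 CPM in shCtrl-CTRL, 122, 121 and 119 in shCtrl-OGDR, 129, 130 and 122 in shAnxa2-CTRL and 96.9, 94.4 and 92.2 in shAnxa2-OGDR. Here shCtrl-CTRL was lowest and shAnxa2-CTRL highest on average, and the groups of each line did not overlap. It rose by 0.60 in shCtrl cells (SE 0.0475, adjusted p = 7.61e-11) and fell by 0.43 in shAnxa2 cells (SE 0.0475, adjusted p = 6.5e-08), an interaction of −1.03 (SE 0.0671, adjusted p = 1.45e-12).
Syvn1, the ubiquitin ligase HRD1, fell by 0.50 in shCtrl cells and rose by 0.51 in shAnxa2 cells, and Derl1 and Derl2, membrane proteins of the exit channel, moved by −0.44 and 0.38 and by −0.41 and 0.40. Herpud1, a scaffold of the HRD1 complex, rose by 0.54 (adjusted p = 7.1e-09) and was −0.13 (adjusted p = 0.0427) in shAnxa2 cells, a call lost in 5 of the 12 fits without a library. Sel1l, the adaptor of HRD1, was higher in shCtrl cells at 0.18 (adjusted p = 0.000943), with −0.09 (adjusted p = 0.11) in shAnxa2 cells. Edem1, a relative of Edem2, was at 0.11 in shCtrl cells (adjusted p = 0.0454), which 6 of 12 fits without a library did not call. Derl3 had 11, 12 and 4, 1, 11 and 8, 3, 5 and 8, then 14, 17 and 16 counts in shCtrl-CTRL, shCtrl-OGDR, shAnxa2-CTRL and shAnxa2-OGDR, and its interaction of 1.85 (adjusted p = 0.0407) was lost in 5 such fits. The fits without a shAnxa2-OGDR library could not test Derl3, because it then failed the count filter.

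The interaction of the sensor genes Ern1 and Atf6 and of the transcription factor Xbp1 had the opposite sign to that of the chaperones. Only Ern1 of these was called in both lines. Of Xbp1, Atf6 and Ern1, OGD/R raised 2 in the shCtrl line (32.4% of all genes tested), and 2 were lower in shAnxa2 cells (26.8% of all). The interaction was negative for 3 of 3 (35.1% of all). Ern1, the gene of IRE1, was at 39.8, 39 and 39.3 CPM in shCtrl-CTRL, 60.4, 50.4 and 55.1 in shCtrl-OGDR, 48.9, 49.5 and 44.4 in shAnxa2-CTRL and 36.2, 39.5 and 38.6 in shAnxa2-OGDR. The shCtrl-OGDR libraries were the highest and the 2 lowest groups, shCtrl-CTRL and shAnxa2-OGDR, overlapped. The changes were 0.49 (SE 0.0661, adjusted p = 6.26e-07) and −0.32 (SE 0.068, adjusted p = 0.000354), and the interaction −0.81 (SE 0.0948, adjusted p = 5.02e-08). Atf6 levels were 177, 170 and 175 CPM in shCtrl-CTRL, 201, 186 and 185 in shCtrl-OGDR, 154, 151 and 153 in shAnxa2-CTRL and 142, 148 and 139 in shAnxa2-OGDR. In each line the treated and untreated libraries did not overlap, and shCtrl-OGDR was highest. It was 0.13 (SE 0.0459, adjusted p = 0.0166) in shCtrl cells, −0.09 in shAnxa2 cells (adjusted p = 0.0925) and −0.22 (SE 0.0655, adjusted p = 0.00402) for the interaction, and the first of these was 0.10 (adjusted p = 0.078) without shCtrl-OGDR library 1.
Xbp1 was at 143, 149 and 142 CPM in shCtrl-CTRL, 141, 155 and 162 in shCtrl-OGDR, 172, 182 and 170 in shAnxa2-CTRL and 145, 139 and 139 in shAnxa2-OGDR. The shAnxa2-CTRL libraries were above all others, and the shCtrl groups overlapped. It was 0.08 in shCtrl cells (adjusted p = 0.195), or 0.14 (adjusted p = 0.0214) without shCtrl-OGDR library 1, and −0.31 (SE 0.0513, adjusted p = 2.06e-05) in shAnxa2 cells. Counts per gene do not separate the spliced from the unspliced Xbp1 mRNA.

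At the translocon, the channel through which new proteins enter the ER, 3 of 4 genes were lower in shCtrl-OGDR (31% of all genes tested). In the shAnxa2 line the same 3 were higher (28.2% of all) and Sec61b lower (26.8% of all). Sec61a1, the pore subunit, was at 606, 572 and 611 CPM in shCtrl-CTRL, 443, 467 and 414 in shCtrl-OGDR, 512, 515 and 590 in shAnxa2-CTRL and 653, 646 and 692 in shAnxa2-OGDR. The shCtrl-OGDR libraries lay below all others and shAnxa2-OGDR above all others. The interaction was 0.73 (SE 0.0795, adjusted p = 1.33e-08), and 14.6% of its 50-base runs are shared with an antisense gene. Ssr1, a subunit of the translocon-associated complex, had levels of 172, 206 and 171 CPM in shCtrl-CTRL, 126, 138 and 124 in shCtrl-OGDR, 156, 142 and 137 in shAnxa2-CTRL and 193, 180 and 179 in shAnxa2-OGDR. The treated and untreated libraries of each line did not overlap, and shCtrl-OGDR was lowest on average. Its interaction was 0.84 (SE 0.091, adjusted p = 1.4e-08), and Ssr3, a second subunit, moved by −0.24 and 0.20.
Sec61b, a small subunit beside the pore, was at 56.9, 64.4 and 63.8 CPM in shCtrl-CTRL, 55.3, 66.8 and 69.7 in shCtrl-OGDR, 84.8, 77.7 and 83.3 in shAnxa2-CTRL and 60.4, 57.6 and 54.7 in shAnxa2-OGDR. Only shAnxa2-CTRL stood apart, above the rest. The change was 0.05 in shCtrl cells (adjusted p = 0.568), or 0.15 (adjusted p = 0.0484) without shCtrl-OGDR library 1, and −0.51 (SE 0.0712, adjusted p = 1.82e-06) in shAnxa2 cells. It shares 41% of its 50-base runs with other genes, mainly Gm10320, so its counts are uncertain.

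Between the lines without OGD/R, most members were lower in shAnxa2 cells. For shAnxa2-CTRL against shCtrl-CTRL, 25 members were lower (29.7% of all genes) and 6 higher (29.5% of all), with a median log2 fold change of −0.32. The largest falls were those of Creld2 at −0.84, Manf at −0.75 and Dnajb11 at −0.64, and the genes higher in shAnxa2 cells were Edem2 at 0.68, Herpud1 at 0.50, Sec61b at 0.41, Xbp1 and Ern1 at 0.27 each and P4hb at 0.15. Calls at the edge were those of Sel1l (−0.11, adjusted p = 0.0472), lost in 10 of 12 fits without a library, and of Sec61a1 (−0.15, adjusted p = 0.0288), lost in 4.
After OGD/R, the sign was the other one. In shAnxa2-OGDR against shCtrl-OGDR, 23 members were higher (33.8% of all genes) and 6 lower (34.2% of all), with a median of 0.35, and 22 of 33 were higher without Derl3 (median 0.34). Creld2 at 1.22, Hyou1 at 1.07, Dnajb11 at 0.89, Manf at 0.86 and Calr at 0.85 were among those higher. Derl3 was at 1.34 on few counts, or 0.78 (adjusted p = 0.152) without shCtrl-OGDR library 1. Lower were Edem1 at −0.58, Ern1 at −0.54, Atf6 at −0.41, Sel1l at −0.38, Edem2 at −0.35 and Herpud1 at −0.18. Hsp90b1 was at 0.05 (adjusted p = 0.577), or 0.15 (adjusted p = 0.0364) without shAnxa2-OGDR library 3. The 4 comparisons share their groups in pairs, so these values are not independent of those within the lines, and both sets of values rest on the treatment names.

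The 34 genes together took 1.25% of the counts of each shCtrl-CTRL library, 0.88% to 0.929% in shCtrl-OGDR, 1.03% to 1.05% in shAnxa2-CTRL and 1.14% to 1.18% in shAnxa2-OGDR. The groups did not overlap. The chaperones and co-chaperones averaged 0.376% ± 0.00709 of the counts in shCtrl-CTRL (SD over 3 libraries), 0.242% ± 0.00643 in shCtrl-OGDR, and 0.301% ± 0.00987 and 0.35% ± 0.00611 in the shAnxa2 groups. Lectin chaperones were at 0.35%, 0.215%, 0.269% and 0.319%, whereas the share of ERAD genes was 0.115%, 0.121%, 0.104% and 0.102%. As a sum it is led by the genes with most counts, and it was given no test.

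**Figure D4:**
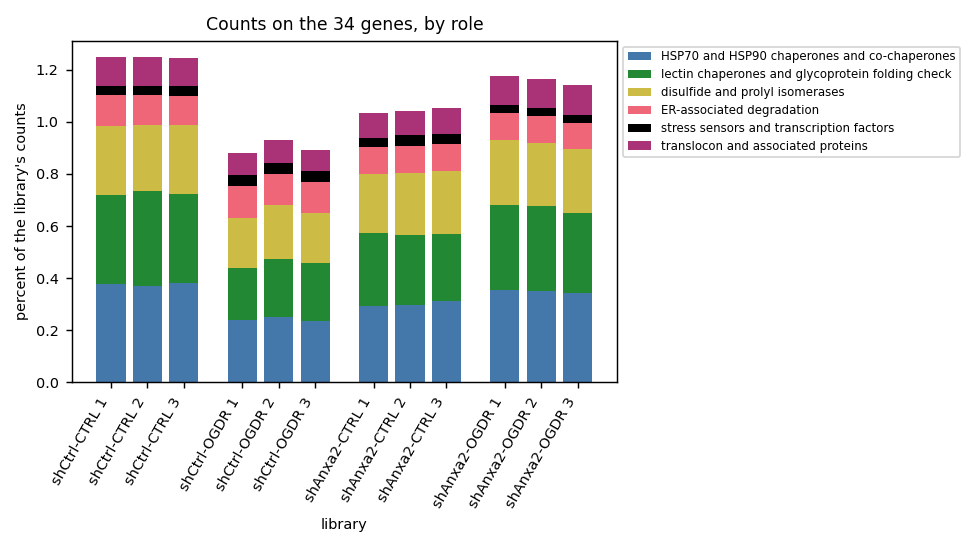
Bars give the percent of each library's counts on the 34 genes, stacked by role from 0, for the 12 libraries. The total is 1.25% in shCtrl-CTRL and 0.88% to 0.929% in shCtrl-OGDR, with both shAnxa2 groups in between, and the blue and green segments, chaperones and lectins, carry most of the difference.

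Of the 9 members with an ERSE, OGD/R lowered 8 and raised 0 in the shCtrl line (median −0.51), with Derl3 as the uncalled one, whereas the shAnxa2 line had 6 raised and 0 lowered (median 0.32). Over all genes tested, 31% were lower and 32.4% higher in the shCtrl line, and 28.2% higher and 26.8% lower in the shAnxa2 line. Without Derl3, which passed the count filter only through shAnxa2-OGDR, the 8 others were all lower in shCtrl cells (median −0.55), and the shAnxa2 line had 5 raised and 0 lowered (median 0.26). Of the 20 members with a window and no ERSE, 11 were lower and 5 higher in shCtrl cells (median −0.25), and 10 higher and 6 lower in shAnxa2 cells. The 8 other genes tested that hold the element had 1 higher and 1 lower in shCtrl cells and a median of −0.04. Of the 8, Tdrd9 passed the count filter only through the shAnxa2 libraries and averaged 0.0924 and 0.0298 CPM in the shCtrl groups. Acacb, the 1 lower, and Adcy3 and Ptgdr2 averaged at most 1.94 CPM in any group. These low levels limit what the 8 can show. Ero1b, an ER oxidase among the 8, was at 0.09 (adjusted p = 0.253). Herpud1, with ERSE-II, moved against most of the members with ERSE, as described above, and Txndc5, with the UPR element, with them.

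Genes of the same pathway outside the 34 were taken as 7 lists with 107 genes in the table, of which 104 were tested, and all but Fkbp10, Serpinh1 and Kdelr3 passed the filter. Together OGD/R left 27 of them higher and 48 lower in the shCtrl line (26% and 46.2%, median −0.08). In shAnxa2 cells 41 were higher and 27 lower (39.4% and 26%, median 0.05). Over all genes tested, 32.4% were higher and 31% lower in the shCtrl line, and 28.2% and 26.8% in the shAnxa2 line. The PERK and ATF4 arm stood against the chaperones, with 8 of 10 higher and 1 lower in shCtrl cells (median 0.74) and 0 higher and 8 lower in shAnxa2 cells (median −0.49). Trib3, a pseudokinase induced by ATF4 and CHOP, was at 12.9, 32, 28.6 and 14.5 CPM on average in shCtrl-CTRL, shCtrl-OGDR, shAnxa2-CTRL and shAnxa2-OGDR, and Chac1, a glutathione-degrading enzyme, at 0.96, 2.44, 1.46 and 0.486 CPM. Ddit3, the gene of CHOP, was 1.12 in shCtrl cells (SE 0.146, adjusted p = 3.95e-07) and −0.66 in shAnxa2 cells (SE 0.156, adjusted p = 0.000935), and Atf4 was 0.73 (adjusted p = 1.3e-10) and −0.64 (adjusted p = 4.19e-09). Of the arm, Eif2s1, the translation factor that PERK phosphorylates, was the gene lower in shCtrl cells at −0.37 (adjusted p = 2.02e-05).
The list of other translocation, signal peptidase and oligosaccharyltransferase genes went with the chaperones, with 0 of 21 higher and 14 lower in shCtrl cells and 9 higher and 1 lower in shAnxa2 cells. For each list here, the shares of all genes tested were 32.4% higher and 31% lower, then 28.2% and 26.8%. Srprb, a subunit of the signal recognition particle receptor, was −0.83 and 0.57 in the respective lines, and Sec11a, of the signal peptidase, −0.33 and 0.55. COPII and ER-Golgi carriers had 4 of 18 higher and 11 lower in shCtrl cells and 9 higher and 2 lower in shAnxa2 cells, with Kdelr2, which retrieves ER proteins from the Golgi, at −0.64 and 0.42 and the coat protein gene Sec23a at 0.51 and −0.56. Oxidative folding had 5 of 14 higher and 4 lower in shCtrl cells (35.7% and 28.6%), near the shares of all genes. It had 3 higher and 8 lower in shAnxa2 cells (21.4% and 57.1%). Ero1a, the oxidase that recharges the disulfide isomerases and is also known as a hypoxia gene, rose by 1.45 in shCtrl cells (SE 0.0603, adjusted p = 1.14e-15) and fell by 1.28 in shAnxa2 cells (SE 0.061, adjusted p = 7.57e-14), and Qsox1, at most 0.89 CPM on average, had 0.93 (adjusted p = 0.164) and −1.27 (adjusted p = 0.0232). Qsox1 passed the count filter only through shAnxa2-CTRL, the group in which it is high, and is among the 8 lower in shAnxa2 cells.
Other ER chaperones and isomerases had 2 of 15 higher and 6 lower in shCtrl cells, then 8 higher and 3 lower. Here too, 32.4% of all genes tested were higher and 31% lower, then 28.2% and 26.8%. Sil1, a nucleotide exchange factor of BiP, was an exception with 1.09 and −0.58, as was Fkbp14, a prolyl isomerase, in shAnxa2 cells at −0.84 (0.52 in shCtrl cells, adjusted p = 0.0578). Other ERAD genes had 4 of 18 higher and 8 lower, then 8 higher and 3 lower, with the lectin gene Erlec1 at 0.44 and −0.38 and Herpud2 at 0.49 and −0.24. Sensor processing and related factors were even in shCtrl cells, with 4 of 8 higher and 4 lower, and had 4 higher and 2 lower in shAnxa2 cells, with the membrane-bound factors Creb3 at −0.43 and 0.26 and Creb3l2 at 0.61 and −0.36.

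**Figure D5:**
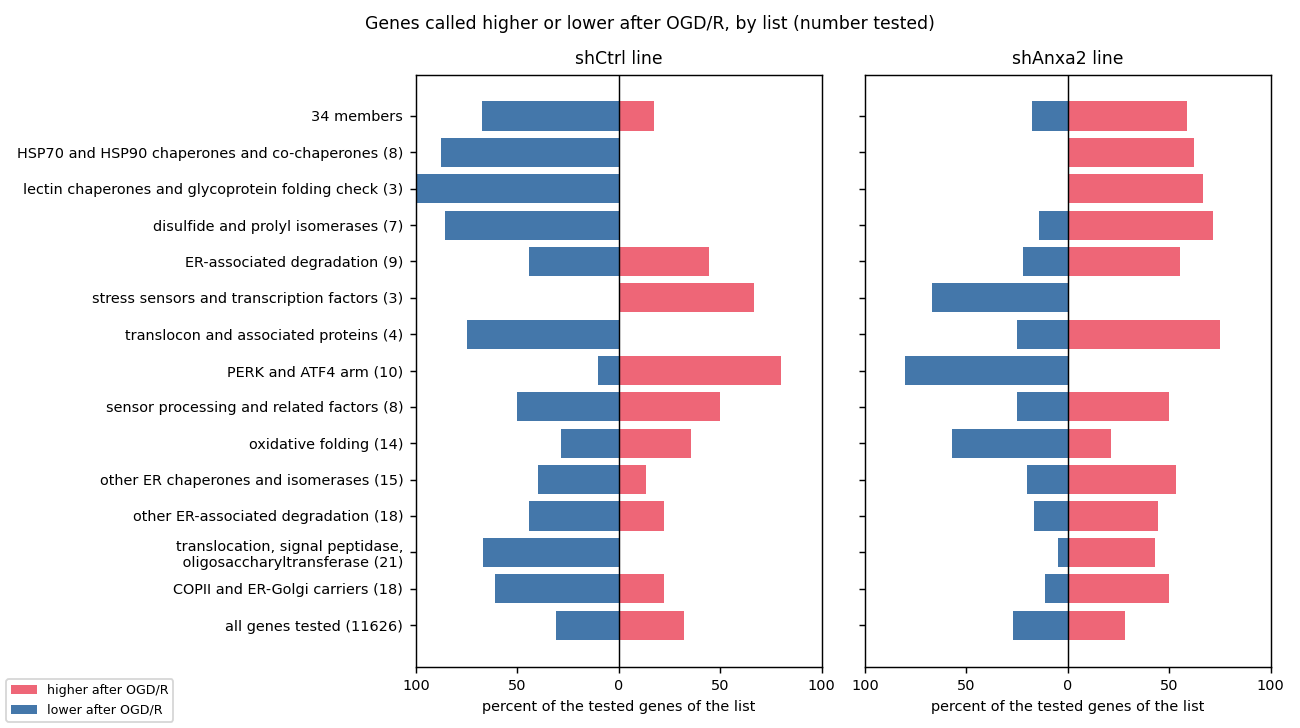
Bars give the percent of the tested genes of each list called higher (red, to the right) or lower (blue, to the left) after OGD/R, in the shCtrl line on the left and the shAnxa2 line on the right, with all 11626 genes tested at the bottom. Chaperone, lectin, isomerase and translocon lists point to lower in shCtrl and to higher in shAnxa2 cells, and the PERK and ATF4 arm points the opposite way with 8 of 10 genes in each.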

How the data were processed

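RNA of the 12 BV2 libraries was sequenced by the authors, who deposited read counts per gene without normalization. The submitters' processing notes name HISAT2 2.0.4 and the genome mm39, while the methods of the study, written for hippocampi, name other tools. The strand setting of the counting is not given in the sources used here. A further 12 per-sample columns of normalized values were not used. Counts were tested with edgeR 4.0.16 in R 4.3.3, with the 11626 genes that reached 0.5 CPM in 3 or more libraries, TMM scaling, 1 quasi-likelihood model over 4 groups and Benjamini-Hochberg adjustment, and a gene was called at an adjusted p under 0.05. CPM are counts scaled by the TMM-adjusted library size. The common biological coefficient of variation was 5.35%. On simulated counts for shCtrl-OGDR against shCtrl-CTRL with 200 genes changed by a log2 fold of 1 among 11525 genes, 196 were called, with 13 false calls, and a contrast without change gave 0 calls. The simulation gave all genes the same biological spread and changed far fewer genes than were called in the data. It therefore does not check the calls made in the data.

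The members and the gene lists were chosen with earlier results of these data known. Levels in every library are given for Hspa5, Xbp1, Atf6 and Ern1 and for up to 3 members per role with the largest interaction, and up to 2 genes per further list with the largest interaction are named, besides genes named after their values were seen (Ddit3, Atf4, Eif2s1, Ero1b and the hypoxia genes). The 20 hypoxia genes were added after the values of the members were known. Promoter windows came from RefSeq (GRCm38.p6), and 50-base runs shared between genes from GENCODE transcripts of GRCm38. No coordinate of the deposited table, which uses another build, was mixed with these. Same-numbered libraries of different groups were checked for a shared deviation, with a pseudocount of 0.1 CPM on the log2 scale. Alternatives were other normalizations (median-of-ratios size factors, upper quartile), no filter or one of 1 CPM, DESeq2 1.42.0, voom of limma 3.58.1, the replicate number as a block, fits of only the groups compared, other call rules and leaving out each library. Python 3.11.15 with pandas 2.3.3, numpy 2.4.6 and matplotlib 3.10.9 was used for tables and plots.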

Additional observations from a re-analysis of the deposited data

Results flagged for a closer look

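The OGD/R change differed between the 2 lines for 32 of the 34 members, tested as the interaction (change in shAnxa2 cells minus change in shCtrl cells, in log2 units, at an adjusted p under 0.05 in the quasi-likelihood test of edgeR, Benjamini-Hochberg adjusted), and for all 14 genes named from the other lists, which were themselves named by the size of this value. Of all genes tested, 70% passed this test in either direction, and Derl3, which passed the count filter only through shAnxa2-OGDR, is among the 32. Qsox1, which passed that filter only through shAnxa2-CTRL, is among the 14. Each of these values rests on the treatment names of the libraries.
Among the chaperones and co-chaperones the interaction was 0.53 for Hspa5, 0.57 for Hsp90b1, 1.45 for Hyou1, 0.58 for Dnajb9, 1.52 for Dnajb11, 0.94 for Dnajc3, 0.71 for Sdf2l1 and 1.61 for Manf. It was 1.25 for Calr, 0.44 for Canx and 0.94 for Uggt1 among the lectin chaperones. The isomerases Pdia3, Pdia4, Pdia6, Txndc5 and Creld2 had 0.76, 1.05, 0.71, 0.84 and 2.07. In ERAD it was positive for Syvn1 at 1.01, Derl1 at 0.82, Derl2 at 0.81, Selenos at 1.34 and Derl3 at 1.85 on few counts, and negative for Herpud1 at −0.68, Sel1l at −0.27, Edem1 at −0.17 and Edem2 at −1.03. The sensors and the transcription factor had −0.38 for Xbp1, −0.22 for Atf6 and −0.81 for Ern1, and the translocon genes 0.73 for Sec61a1, −0.56 for Sec61b, 0.84 for Ssr1 and 0.44 for Ssr3.
Of the genes outside the 34, Trib3 had −2.29, Chac1 −2.92, Ero1a −2.73, Qsox1 −2.20, Sil1 −1.68, Fkbp14 −1.37, Sec23a −1.07, Creb3l2 −0.97, Erlec1 −0.83 and Herpud2 −0.73, and Srprb had 1.40, Kdelr2 1.06, Sec11a 0.88 and Creb3 0.69.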

How the results depend on the processing

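No alternative turned the direction of a called member. Over the alternatives other than leaving out a library, 1299 of the members' values kept their side of the threshold, 13 lost the call and 7 gained it. With 1 library left out these were 1958, 56 and 11, on 14 of the 34 members. Counts of members then ranged, as higher and lower, from 5 to 6 and 22 to 23 for OGD/R in the shCtrl line, 19 to 21 and 4 to 6 in the shAnxa2 line, 6 to 6 and 22 to 25 between the lines without OGD/R, 20 to 23 and 6 to 8 after OGD/R, and 22 to 24 and 7 to 8 for the interaction. Without shAnxa2-OGDR library 1, which leaves 33 members tested, the median in shAnxa2 cells was 0.22 in place of 0.30. The log2 fold change of Anxa2 ranged from −2.16 to −2.0 between the lines without OGD/R, −3.91 to −3.78 after it, 0.66 to 0.78 and −1.13 to −0.97 within shCtrl and shAnxa2 cells and −1.83 to −1.67 for the interaction.
Calls resting on size changed the counts. At an unadjusted p under 0.05 and a fold of 1.5, higher and lower members numbered 1 and 9 for OGD/R in the shCtrl line (12.1% and 8.52% of all genes), 2 and 0 in the shAnxa2 line (4.4% and 8.24%), 1 and 3 between the lines without OGD/R (10% and 6.08%), 9 and 0 after OGD/R (12% and 14.6%), and 19 and 3 for the interaction (20% and 22.2%). With the adjusted p and a log2 limit of 1 they were 0 and 2 (4.65% and 2.08% of all genes), 1 and 0 (0.809% and 2.74%), 0 and 0 (3.84% and 1.83%), 3 and 0 (3.66% and 6.43%), and 9 and 1 for the interaction (8.83% and 12.7%). Derl3 is among those higher under both rules in shAnxa2 cells, after OGD/R and for the interaction. In the 4 comparisons of groups most members thus differed by less than the fold limits. The share of counts in shCtrl-CTRL was 1.24% with TMM-scaled library sizes, and without Calr the shares were 1.02%, 0.78%, 0.872% and 0.948% in shCtrl-CTRL, shCtrl-OGDR, shAnxa2-CTRL and shAnxa2-OGDR, in the same order of groups.
Same-numbered libraries did not deviate together, with correlations of −0.051 to 0.135 over 18 pairs of which 1 was over 0.1, and 6 of 12 libraries correlated best with their own number, so the numbers were not taken to pair the samples. With the replicate number as a block, Sel1l without OGD/R lost its call (−0.11, adjusted p = 0.0532), and no other member's call changed. Calls lost without 1 library included the Dnajb9 interaction in 3 of 12 fits (lowest 0.42), its difference between the lines without OGD/R in 3, that of Sec61a1 in 4, and that of Canx after OGD/R in 3. The cause was not tested. Derl3 had the fewest counts, 1 to 17 per library.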
